A study of Rattus norvegicus with 10 samples.

Results

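Matrix metalloproteinases and their tissue inhibitors were followed in 5 rat mammary tumors, each sampled before and after chemotherapy. The 10 genes are Mmp2, Mmp3, Mmp9, Mmp11, Mmp12, Mmp13, Mmp14, Timp1, Timp2 and Timp3. They were taken as all probe sets whose platform annotation gives 1 of these symbols alone, which yielded 17 of the 31099 probe sets of the array, and every gene had at least 1. A gene is represented by its brightest tested probe set, and 16 of the 17 were tested. The samples were Affymetrix arrays of female Sprague-Dawley rats carrying tumors induced by a single oral dose of 7,12-dimethylbenz(a)anthracene (DMBA) at 100 mg/kg. The basal group (n = 5) held needle biopsies taken at 12 weeks of age, without treatment, when the tumor measured 2 cm3. The final group (n = 5) held the same tumors (09I1, 11D2, 12I1, 29I1, 43D1) at 19 weeks, after adriamycin (doxorubicin) into the tail vein at 1 mg/kg per week for 6 weeks. Both groups therefore carried DMBA-induced tumors, which the study had selected for an intermediate histological grade, and none was sampled late without adriamycin, so drug and age cannot be told apart. On the final samples the sources differ: one names a whole tumor, another a needle sample. Whether every tumor came from a separate rat is not given in the sources used here, so the tests below measure the spread between tumors.

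Matrix metalloproteinases are zinc-dependent enzymes that cut the proteins of the extracellular matrix. They are made as inactive precursors and are switched on by removal of a propeptide. TIMPs are small secreted proteins that occupy the catalytic site of the active enzymes, so the balance of both families sets how much matrix is degraded. In mammary tumors many of these proteases are made by fibroblasts, macrophages and neutrophils as well as by tumor cells. Fewer cells of a type and less RNA per cell cannot be told apart in these bulk samples.

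The arrays were alike except for one. The final array of tumor 09I1 had a median correlation of 0.938 with the other arrays, against 0.975 to 0.984 for the other 9. Its beta-actin control probe sets were 2.61 log2 units higher at the 3′ end than at the 5′ end, where all other arrays had 0.72 to 0.96. Each group has its own run of codes in the titles, and a batch that followed these codes cannot be told apart from the treatment. The tissue carried mammary epithelium: the summed level of 14 luminal markers, of which Krt19 and Epcam were the brightest, lay between 15.11 and 15.55 in the basal and between 14.87 and 15.59 in the final samples. Summed levels here are the log2 of the added linear levels of a list.

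None of the 10 genes differed between final and basal samples past the threshold. Of the 10, 5 had a higher and 5 a lower mean in the final samples. The median change of the 10 was -0.0032 log2 units, beside 0.014 over the 12255 tested genes, and without 09I1 it was 0.15. Their limma adjusted p-values, over all 23281 tested probe sets, lay between 0.977 and 0.996. The threshold was an adjusted p of 0.05, and it was passed by 0 of the 10 and by 0 probe sets in all (percent called 0). At an unadjusted p under 0.05 the count was 0 of 10 genes, where 935 of all probe sets (4.02%) were called. With the methods' paired t-test it was also 0 after adjustment. No gene had the same sign in all 5 tumors, which 5.83% of tested genes had, and none had groups that did not overlap, which 0.84% had. Without 09I1, 0 of the 10 had an unadjusted limma p under 0.05, where 8.02% of probe sets had one, and 0 had the same sign in the other 4 tumors, where 15.4% of genes had it. Tumor by tumor, the final sample was the higher one for 8 of the 10 genes (43D1), 7 (11D2), 6 (12I1), 4 (09I1) and 1 (29I1). The share of all tested genes that were higher in each tumor was not computed, so these counts cannot be read as particular to the 10 genes.

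**Figure D1:**
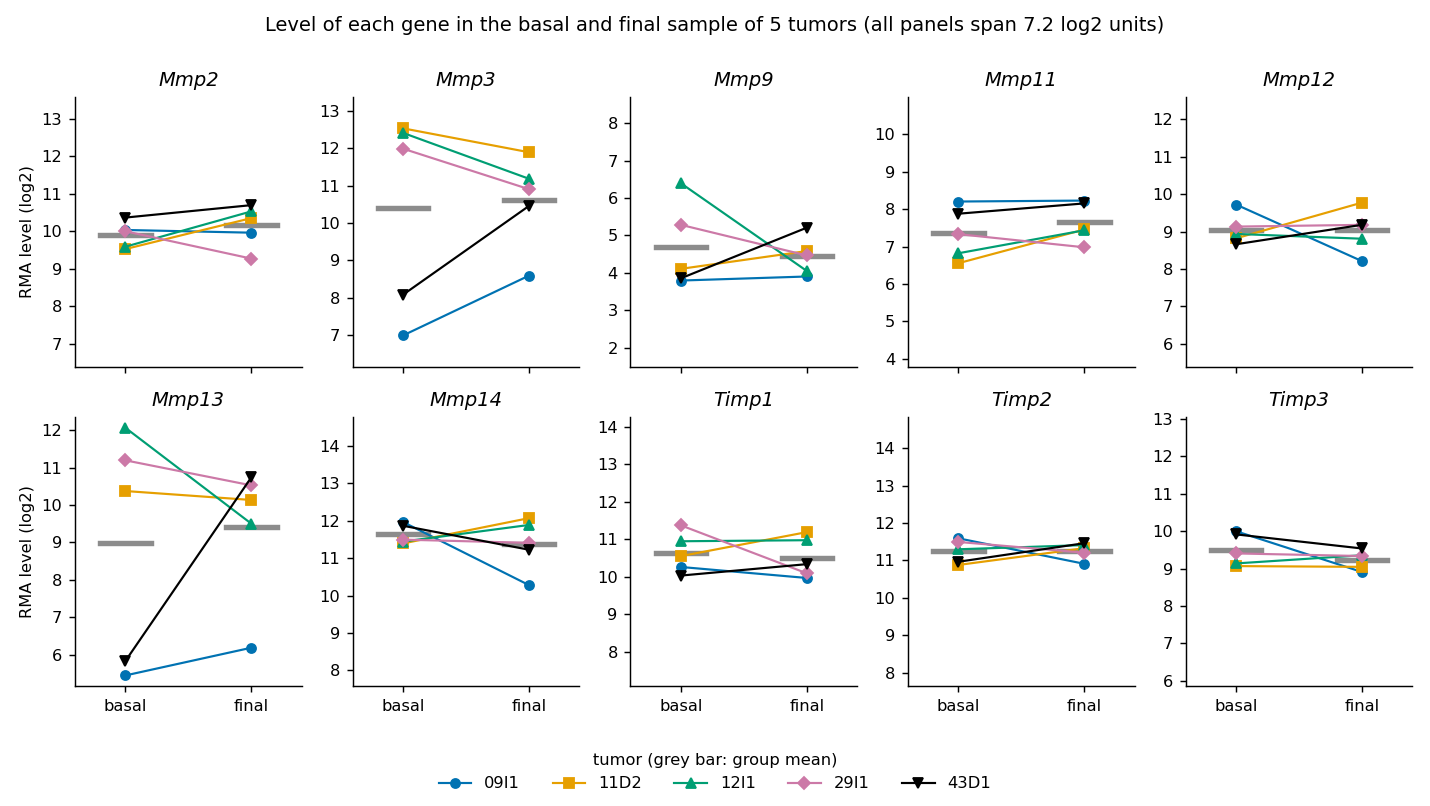
Level (log2, robust multichip average) of the 10 genes in the basal and final sample of each tumor, 1 panel per gene, with a line per tumor and a grey bar at each group's mean (n = 5). Mmp3 and Mmp13 spread over several log2 units and cross between tumors, while the 10 arrays span 0.71 units for Timp2 and 1.09 for Timp3.

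Mmp3 and Mmp13 differed far more between tumors than between the group means. Mmp3 encodes stromelysin-1, which cleaves proteoglycans, laminin and fibronectin and activates procollagenases. Mmp13 encodes collagenase-3, which cuts fibrillar collagen and serves as the main interstitial collagenase of rodents. The genes lie close together on rat chromosome 8, in a run of 10 neighbouring protein-coding genes, all metalloproteinases, that starts with Mmp13 and Mmp12 and ends with Mmp7.

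In the basal samples Mmp3 had levels of 7.00 (09I1), 12.53 (11D2), 12.41 (12I1), 11.99 (29I1) and 8.09 (43D1). In the final samples Mmp3 had levels of 8.60 (09I1), 11.89 (11D2), 11.18 (12I1), 10.90 (29I1) and 10.46 (43D1). Before treatment 09I1 and 43D1 were thus low and the other 3 tumors high, and after it 09I1 alone was apart, with the groups overlapping widely. The mean of Mmp3 was 10.40 ± 2.65 (SD, n = 5) before and 10.61 ± 1.24 (SD, n = 5) after treatment. The change of Mmp3 was 0.20 ± 0.57 (SE), with a 95% interval of -1.13 to 1.54 and a limma adjusted p of 0.977, and it was positive in 2 of 5 tumors. Leaving out 09I1 turned the mean change of Mmp3 to -0.14, and leaving out 43D1 turned it to -0.34.

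Mmp13 had basal levels of 5.44 (09I1), 10.37 (11D2), 12.06 (12I1), 11.19 (29I1) and 5.83 (43D1). Its final levels were 6.19 (09I1), 10.13 (11D2), 9.50 (12I1), 10.52 (29I1) and 10.74 (43D1). The same pair of tumors was low before treatment, and 43D1 had joined the high group at the final sampling, at a level just above those of the other 3. Mmp13 had a mean of 8.98 ± 3.11 (SD, n = 5) before and 9.42 ± 1.87 (SD, n = 5) after treatment. Its change was 0.44 ± 0.94 (SE), with a 95% interval of -1.77 to 2.64 and a limma adjusted p of 0.977. In 43D1 it was 4.91 and in 12I1 it was -2.56, and without 43D1 the mean change of Mmp13 was -0.68. A single tumor's change rests on 1 array per sampling and has no error of its own. The SD of the changes over all tested probe sets was 0.58 in 43D1 and 0.47 in 12I1.

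**Figure D2:**
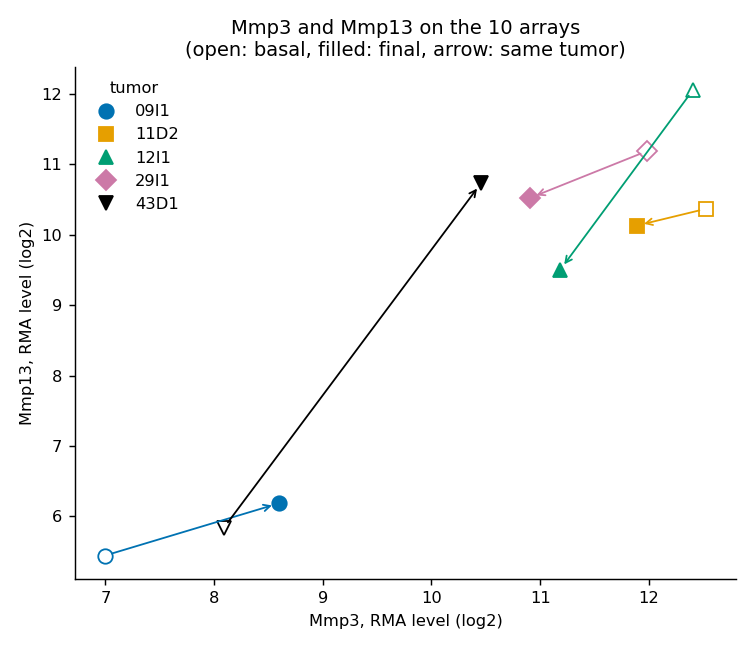
Level of Mmp13 against that of Mmp3 (both log2) on the 10 arrays, with open symbols for basal and filled ones for final samples and an arrow joining the samples of a tumor. Both samples of 09I1 and the basal sample of 43D1 lie at the lower left, below 8.60 for Mmp3 and 6.19 for Mmp13 or at those values, and the other 7 arrays lie at the upper right.

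On both genes the 10 arrays fell into the same 3 low and 7 high ones. The gap between them was 1.86 log2 units for Mmp3 and 3.31 for Mmp13. Within the 7 high arrays the genes did not keep a common order, with a Pearson r of 0.37 (n = 7, as a description). The likeness of both genes over all arrays therefore rests on the 3 low arrays, 2 of which belong to 1 tumor.

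The start regions of these genes hold the recognition letters of AP-1, the Fos and Jun factor through which growth factors and phorbol esters are known to induce collagenase and stromelysin. They are shown because Mmp3 and Mmp13 were low and high on the same arrays, beside the neighbouring Mmp12 and Mmp7, which hold the letters as well. Each line gives 110 bases before the annotated start and 10 after it, on the plus strand of GRCr8, from RefSeq, with the AP-1 letters in capitals.
Mmp3, chr8:12925171-12925290: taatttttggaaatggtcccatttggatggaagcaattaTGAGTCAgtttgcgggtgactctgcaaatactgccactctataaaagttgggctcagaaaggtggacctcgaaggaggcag
Mmp13, chr8:12782719-12782838: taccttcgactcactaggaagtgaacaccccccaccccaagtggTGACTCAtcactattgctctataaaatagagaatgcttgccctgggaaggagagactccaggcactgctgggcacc
Mmp12, chr8:12866542-12866661: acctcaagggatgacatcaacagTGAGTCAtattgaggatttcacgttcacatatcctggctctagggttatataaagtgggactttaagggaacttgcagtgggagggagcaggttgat
Mmp7, chr8:13132933-13133052: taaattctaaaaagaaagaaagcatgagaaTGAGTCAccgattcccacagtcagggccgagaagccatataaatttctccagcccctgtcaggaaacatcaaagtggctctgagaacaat

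The motif TGANTCA, which reads the same on both strands, started 71 bases before the annotated start in Mmp3, 66 in Mmp13, 87 in Mmp12 and 80 in Mmp7. The letters TATAAA, of the TATA box, followed at 32, 47, 39 and 43 bases before the start. Of the 33469 promoter windows of 300 bases in the table, 7.33% held TGANTCA and 14.2% held TATAAA on either strand. Of the 7 members with a window, Mmp3, Mmp13 and Mmp12 held TGANTCA, and Mmp11, Timp1, Timp2 and Timp3 did not. Among other genes of the chromosome 8 run with a window, Mmp1, Mmp10 and Mmp20 held it as Mmp7 did, and Mmp8 and Mmp27 did not. Whether the motif had a part in the levels was not tested. Of the 3 arrays low for Mmp3 and Mmp13, the final one of 09I1 (8.21) and the basal one of 43D1 (8.66) were also the lowest for Mmp12, but on the basal one of 09I1 its level of 9.72 was exceeded on 1 array only.

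Mmp7 encodes matrilysin, an epithelial protease, and was singled out after its values had been seen. Its basal levels were 8.88 (09I1), 8.79 (11D2), 11.23 (12I1), 9.83 (29I1) and 7.59 (43D1), and its final levels were 8.86, 9.85, 8.09, 8.85 and 11.30 in the same order of tumors. Of the 10 arrays the basal one of 43D1 was the lowest for Mmp7 and its final one the highest, and 12I1 was higher before treatment than after it, as for Mmp13. The changes of Mmp7 were 3.71 in 43D1 and -3.14 in 12I1, and its mean change was 0.13 ± 0.86 (SE, limma adjusted p = 0.992). In 09I1, where both samples were low for Mmp3 and Mmp13, Mmp7 was in the middle of its own range.

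Mmp9 encodes gelatinase B, which degrades basement membrane collagen and is stored in neutrophil granules. Its basal levels were 3.79 (09I1), 4.11 (11D2), 6.39 (12I1), 5.28 (29I1) and 3.85 (43D1). The final levels of Mmp9 were 3.90, 4.58, 4.05, 4.47 and 5.21 in that order. The basal samples of 12I1 and 29I1 were the highest, with a gap of 1.11 log2 units below 12I1. The final sample of 43D1 lay just below the basal one of 29I1. The remaining arrays, at 3.79 to 4.58, lay close to the low end of the scale. On 3 of the 10 arrays Mmp9 lay below the array's lower quartile, which was 4.001 to 4.291, so the size of its changes is uncertain. The mean change of Mmp9 was -0.24 ± 0.48 (SE, limma adjusted p = 0.977), with a 95% interval of -1.38 to 0.89. Without 12I1 it was 0.28. Its other probe set, with too low a mean to be tested, was also highest on the basal arrays of 12I1 and 29I1, at 5.14 and 4.89.

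Mmp12 encodes macrophage elastase. It ranged from 8.66 in 43D1 to 9.72 in 09I1 in the basal samples, with 8.82 in 11D2, 8.94 in 12I1 and 9.13 in 29I1 between. In the final samples Mmp12 was lowest on the array that stood apart, at 8.21 in 09I1, and highest at 9.77 in 11D2, with 8.81 in 12I1 and 9.18 in both 29I1 and 43D1. The groups overlapped almost fully. The mean change of Mmp12 was -0.02 ± 0.33 (SE, limma adjusted p = 0.996), and it was 0.35 without 09I1 and 0.0021 without 12I1. The change of Mmp12 had the sign of the median change of 13 macrophage markers in 4 of 5 tumors. The pairs of values were 0.95 and 0.82 (11D2), 0.52 and 1.18 (43D1), -0.13 and -0.77 (12I1), and -1.51 and -0.07 (09I1). In 29I1 they were 0.05 and -1.37.

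Mmp2, Mmp14 and Timp2 belong together in the classical scheme of gelatinase activation, in which the membrane protease encoded by Mmp14 cleaves the Mmp2 precursor that Timp2 holds at the cell surface. Mmp2, gelatinase A of fibroblasts, had basal levels of 10.03 (09I1), 9.52 (11D2), 9.59 (12I1), 9.999 (29I1) and 10.37 (43D1). The final levels of Mmp2 were 9.96, 10.35, 10.53, 9.27 and 10.70 in that order. The final group thus spread beyond the basal one on both sides, with 29I1 lowest and 43D1 highest, and the mean change was 0.26 ± 0.25 (SE, limma adjusted p = 0.977). It was 0.09 without 12I1 and 0.51 without 29I1. A further Mmp2 probe set lay near the low end of the scale on all arrays, between 3.89 and 4.47, and had a change of 0.02.

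Mmp14 had a narrow basal range, with 11.96 (09I1), 11.39 (11D2), 11.44 (12I1), 11.49 (29I1) and 11.86 (43D1). Its final levels were 10.28 (09I1), 12.07 (11D2), 11.89 (12I1), 11.41 (29I1) and 11.22 (43D1). The final sample of 09I1 was lowest and that of 11D2 highest, so the final range enclosed the basal one. The mean change of Mmp14 was -0.26 ± 0.33 (SE, limma adjusted p = 0.977), and it was 0.10 without 09I1. Both of its probe sets had a mean change of -0.26, and within a tumor they differed by 0.01 to 0.30.

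Mmp11 encodes stromelysin-3, which is made by fibroblasts around carcinoma cells and is activated inside the cell by furin. Its basal levels were 8.20 (09I1), 6.56 (11D2), 6.82 (12I1), 7.33 (29I1) and 7.88 (43D1), and its final levels were 8.23, 7.46, 7.44, 6.98 and 8.15. The tumors low for Mmp3 before treatment, 09I1 and 43D1, were the highest for Mmp11 at both samplings. Mmp11 was higher in 4 of 5 tumors, with a mean change of 0.29 ± 0.21 (SE, limma adjusted p = 0.977) and a 95% interval of -0.20 to 0.79. It was 0.14 without 11D2 and 0.45 without 29I1. With arrays weighted by their quality the change of Mmp11 was 0.51, and its limma adjusted p of 0.438 was the smallest of any member under any setting.

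Of the inhibitors, Timp1 had the widest differences between samples of a tumor outside 09I1. Timp1 encodes an inducible inhibitor that binds the Mmp9 precursor. Its basal levels were 10.26 (09I1), 10.55 (11D2), 10.95 (12I1), 11.37 (29I1) and 10.03 (43D1), and its final levels were 9.97, 11.19, 10.98, 10.09 and 10.34. The basal sample of 29I1 was the highest of all and its final sample among the lowest, a change of -1.28. The mean change of Timp1 was -0.12 ± 0.27 (SE, limma adjusted p = 0.977), and it was 0.17 without 29I1.

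Timp2, a broadly expressed inhibitor, and Timp3, which stays bound to the matrix, had the lowest SD over the 10 arrays among the members, by the probe set that represents each. The SD of the 5 changes was lowest for Mmp11, at 0.49, followed by 0.501 for Timp2 and 0.506 for Timp3. Timp2 lay between 10.88 (11D2) and 11.59 (09I1) in the basal and between 10.91 (09I1) and 11.46 (43D1) in the final samples. Its mean change was 0.02 ± 0.19 (SE, limma adjusted p = 0.995), and it was -0.09 without 11D2, -0.0062 without 12I1 and -0.10 without 43D1. Timp3 lay between 9.07 (11D2) and 9.997 (09I1) in the basal and between 8.91 (09I1) and 9.54 (43D1) in the final samples. The mean change of Timp3 was -0.27 ± 0.20 (SE, limma adjusted p = 0.977), and it was -0.06 without 09I1.

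The probe sets of Timp2 and Timp3 disagreed most in 09I1. In that tumor the brighter Timp2 probe set had a change of -0.68 and the other one -3.66, from 9.17 to 5.52, whereas in the other 4 tumors they differed by 0.07 to 0.56. The 4 Timp3 probe sets had changes of -2.08, -1.50, -1.79 and -1.09 in 09I1 and differed by 0.26 to 0.51 elsewhere. These differences fall on the array with the raised 3′ to 5′ ratio of beta-actin, and the part of that ratio in them was not tested.

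**Figure D3:**
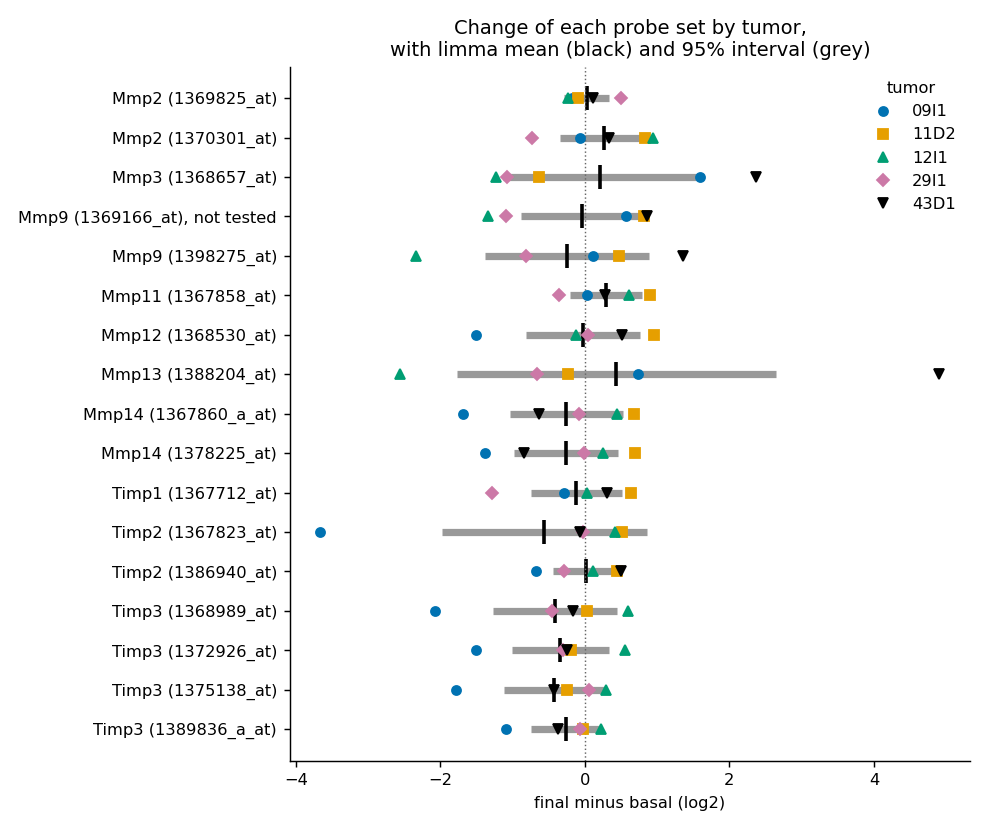
Final minus basal level (log2) of the 17 probe sets in each tumor (symbols), with the limma mean (black bar) and its 95% interval (grey). Every interval includes 0, the widest is that of Mmp13 (-1.77 to 2.64), and 09I1 lies far to the left in the Timp2 and Timp3 probe sets.

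Set against all tested genes, the members varied more between arrays than most. The SD over the 10 arrays was 2.43 for Mmp13 and 1.95 for Mmp3, above that of 99.9% and 99.8% of the 12255 tested genes, and 0.84 for Mmp9, above that of 95.02%. It was 0.26 for Timp2, below the median of 0.29 over tested genes, and the other 6 lay between 0.36 and 0.60. The median of the 10 was 0.52. A change of over 1 log2 unit upward in 1 tumor and downward in another was present in Mmp3, Mmp9 and Mmp13, that is in 3 of 10 members, where 5.89% of tested genes had it. A change of over 1 unit in at least 3 tumors was present in 1 of 10, Mmp3, and in 3.5% of tested genes. The SD between basal samples was 2.65 for Mmp3 and 3.11 for Mmp13, and between final samples it was 1.24 and 1.87. The difference in spread was not tested.

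**Figure D4:**
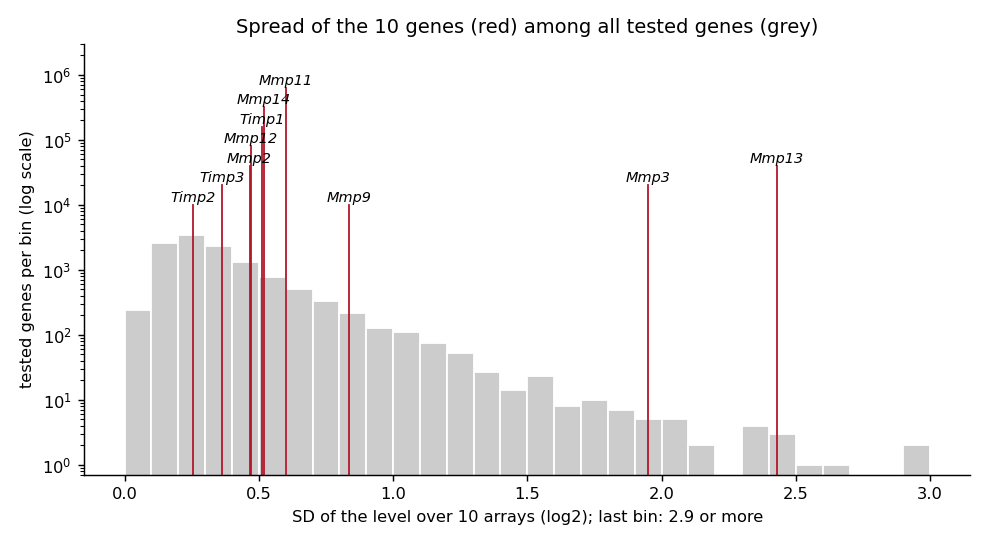
Distribution of the SD over 10 arrays (log2 units) of the 12255 tested genes, in grey on a logarithmic count axis, with the 10 members as red lines. Mmp3 (1.95) and Mmp13 (2.43) lie in the sparse right tail, Mmp9 (0.84) on the right shoulder, and Timp2 (0.26) near the bulk of all genes.

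Marker lists of cell types that are known to make these proteases also differed in sign between tumors. In 43D1, where Mmp3, Mmp13, Mmp9 and Mmp7 were higher in the final sample, 13 of 13 macrophage markers were higher, with a median of 1.18, and the fibroblast median was -0.05 with 6 of 14 higher. In 29I1, where these 4 genes were lower, 1 of 13 macrophage markers and 0 of 14 fibroblast markers were higher, with medians of -1.37 and -0.99. In 12I1 these 4 genes were lower as well, though 6 of the 10 members were higher. The macrophage median there was -0.77 with 0 of 13 higher, while 14 of 14 fibroblast markers were higher with a median of 0.71. In 11D2 both lists were higher, with medians of 0.82 and 0.99. There Mmp3 and Mmp13 were lower by 0.64 and 0.24, while Mmp9 and Mmp7 were higher by 0.48 and 1.05. In 09I1 the medians were -0.07 and -0.28. There Mmp3, Mmp13 and Mmp9 were higher by 1.60, 0.74 and 0.11, and Mmp7 had a change of -0.02. The median of 6 neutrophil markers was 0.20 in 09I1 and 0.31 in 43D1, where Mmp3 and Mmp13 were higher. It was -0.56 in 11D2, -0.67 in 12I1 and -1.27 in 29I1, where they were lower, so the sign of the median matched in 5 of 5 tumors. For Mmp9 and Mmp7 the sign differed in 11D2, and for Mmp7 also in 09I1. The share of tested genes whose signs match those of Mmp3 and Mmp13 in all 5 tumors was not computed, so the match is only a description. Single neutrophil markers did not move together. Of the 6, 5 were higher in 09I1, 4 in 43D1 and 2 in each of 11D2, 12I1 and 29I1. In 43D1 S100a8 and S100a9 had changes of -0.87 and -0.83, and the median lay between Camp at 0.08 and Lcn2 at 0.53. In 29I1 the summed level of the 6 neutrophil markers had a change of 0.11, opposite in sign to their median, and Lcn2, by far the brightest, had one of 0.20.

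The summed macrophage level lay between 12.99 and 14.97 in the basal and between 13.56 and 14.26 in the final samples, led by Lyz2 and Cd14. The summed fibroblast level, led by Postn and Col3a1, lay between 14.15 and 15.17 in the basal and between 13.87 and 15.25 in the final samples. For the 6 tested neutrophil markers the range was 12.34 to 13.57 in the basal and 12.84 to 13.46 in the final samples. That sum was almost all Lcn2, with a basal mean of 13.05 beside 7.82 for Fcgr3a, the next brightest, so it does not stand for the list. No marker of these 3 lists passed the threshold. Genes with the lowest means had been left out beforehand, yet some markers that remained were low, such as Camp with a basal mean of 4.12. Of the lists of other cell types, the medians farthest from 0 were 4.65 for 11 skeletal muscle markers in 11D2 and -4.50 for 7 keratinocyte markers in 29I1. The macrophage signs in 43D1 and 29I1 were shared by T and NK cell markers (medians 1.21 and -0.64) and adipocyte markers (0.67 and -0.80). In 12I1 these lists were at 0.03 and 0.14. Smooth muscle and myoepithelium (-0.97 in 43D1 and 1.07 in 29I1) and mast cell and eosinophil markers (-0.99 and 0.94) went the other way. The part of these cells in the protease levels was not tested.

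**Figure D5:**
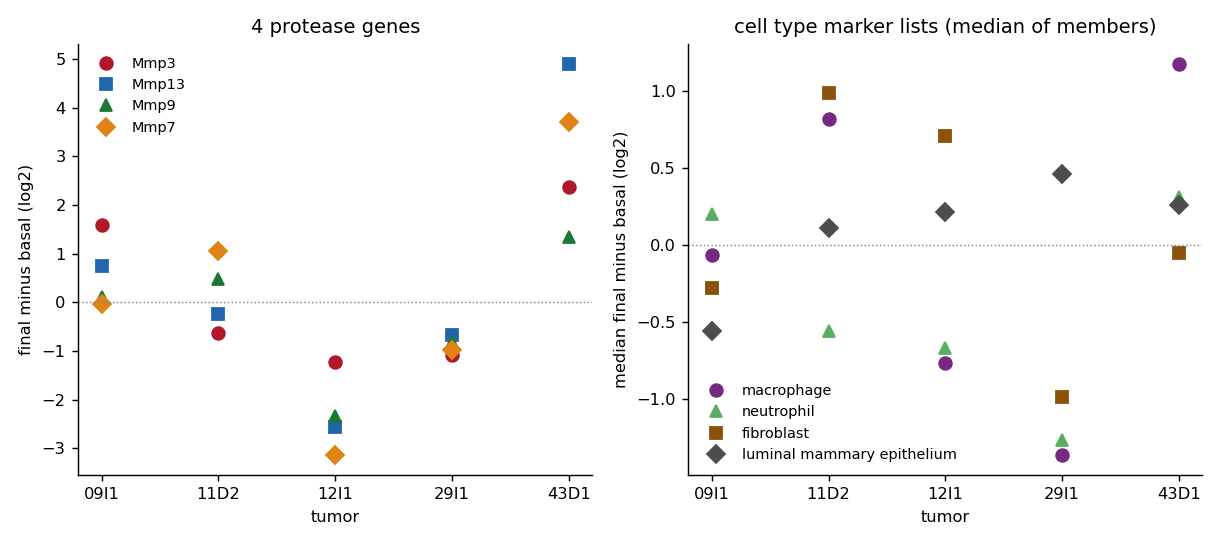
Final minus basal level (log2) by tumor, for Mmp3, Mmp13, Mmp9 and Mmp7 at the left and as medians of 4 cell type marker lists at the right, on separate scales. In 43D1 the 4 proteases lie above 0 with the macrophage median at 1.18, in 12I1 and 29I1 all 4 lie below 0 with macrophage medians of -0.77 and -1.37, and fibroblast medians differ in sign between 12I1 and 29I1. The 4 genes were chosen with their changes known, and some lists not drawn were also higher in 43D1 and lower in 29I1.

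Other genes of matrix proteolysis did not pass the threshold either, in 7 lists that held 76 tested genes. Of 7 further metalloproteinases tested, 5 had higher and 2 lower means, with a median change of 0.19. Mmp17 and Mmp24, membrane-bound members of the family, had changes of 0.54 ± 0.17 and 0.19 ± 0.13 (SE), and Mmp15 had one of 0.22. Those of Mmp17 and Mmp24 were positive in 5 of 5 tumors, where 5.83% of tested genes had the same sign in all. The smallest were 0.06 for Mmp17 (29I1) and 0.06 for Mmp24 (11D2). Further inhibitors gave a median of 0.12 over 4 genes, with Timp4 at 0.45, the membrane-anchored inhibitor gene Reck at 0.11 (0.31 without 09I1) and A2m at -0.13 (0.07 without it). Of 6 genes of plasminogen activation, which feeds the activation of several metalloproteinases, 3 were higher and 3 lower, with a median of -0.03 that was 0.21 without 09I1. Serpine2, an inhibitor of plasminogen activators, had a change of -0.47 ± 0.17 (SE), negative in 4 of 5 tumors, while Plg and Serpinf2 had 0.35 and 0.18.

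Among 12 activators and inducers, 5 were higher and 7 lower, with a median of -0.01 (-0.04 without 09I1). Il1b, a cytokine that induces stromelysin and collagenase in fibroblasts, had a change of -0.73 ± 0.35 (SE) and was lower in 4 of 5 tumors, with the exception in 09I1, and without 09I1 it was -1.07. Spp1 had a change of -0.57, with -2.08 in 09I1 and -0.19 without it, and Pcsk6 had one of 0.39 (0.18 without 09I1). Of 12 ADAM and ADAMTS proteases 3 were higher, where 52.73% of tested genes were, and the median was -0.11. Without 09I1, 8 of the 12 were higher, where 48.4% of tested genes were, and the median was 0.12. The 3 included Adamts5, an aggrecanase, at 1.04 ± 0.38 (SE) and higher in 4 of 5 tumors, and Adamts15 at 0.34, while Adamts4 was at -0.23.

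Of 14 genes of AP-1 and Ets factors, 4 were higher and 10 lower, with a median of -0.08 that was -0.12 without 09I1. Etv4, an Ets factor, had the largest difference of the list, with a mean of 8.97 ± 0.60 (SD, n = 5) before and 7.82 ± 0.48 (SD, n = 5) after treatment. Its change was -1.16 ± 0.33 (SE, limma adjusted p = 0.977), negative in 4 of 5 tumors and 0.09 in 09I1. Etv5 had a change of -0.58 (-0.38 without 09I1), and Jund one of 0.25 with the same sign in 5 of 5 tumors, as 5.83% of tested genes had. Of 21 matrix proteins that metalloproteinases cut, 17 had lower means, with a median of -0.29, beside 47.27% lower and a median of 0.014 over all tested genes. Without 09I1, 15 of the 21 were lower with a median of -0.10, beside 51.6% of tested genes. Sparc had a change of -0.88, with -2.80 in 09I1 and a mean of -0.40 without it. Col1a1 had a change of -0.77 and Dcn, which encodes decorin, one of 0.59. The list's median was above 0 in 11D2 (0.73) and 12I1 (0.28) and below it in 29I1 (-1.16), 43D1 (-0.56) and 09I1 (-0.73). Except for A2m, at 0.981, and Mmp7, at 0.992, each gene named from these lists had a limma adjusted p of 0.977.

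Outside the 10 genes, those whose level ran most like a member's over the 10 arrays are given as a description, by Pearson r. For Mmp3 they were Ddah1 (0.97) and Id3 (0.95), and over the 7 arrays high for Mmp3 the values were 0.93 and 0.54. For Mmp13 they were Sema4f (0.97) and Aldh1a3 (0.97), and over those 7 arrays 0.69 and 0.72. For Mmp9 they were Arsi (0.95) and Tmem59l (0.95), and for Mmp11 Bex1 (0.94) and Plekhh1 (0.92). Mmp12 ran with Selenop (0.91) and Rps6ka5 (0.91), Mmp14 with Slc31a1 (0.96) and Cox15 (0.95), and Mmp2 with F5 (0.91) and Ctsk (0.89). Without 09I1 these values were 0.85 and 0.85 for Mmp12, 0.87 and 0.82 for Mmp14, and 0.94 and 0.89 for Mmp2. Timp1 ran with Skap2 (0.96) and Capn2 (0.95), Timp2 with Myd88 (0.88) and Scamp2 (0.87), and Timp3 with Pikfyve (0.94) and Nsd3 (0.94). All these values share the 10 arrays, in pairs from 5 tumors, and each pair of genes is the highest among 12245 compared.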

How the data were processed

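The authors deposited log2 levels, normalized by robust multichip averaging per the labels' protocols, for 31099 probe sets of the Rat Genome 230 2.0 array. The series' text names GeneSpring GX 7.3, Student's test for pairs, and a filter on weak signals and controls that this table does not show, since 57 control probe sets remain. The genome build is not given in the sources used here.

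Of the probe sets, 20826 carried 1 symbol, 436 several and 9780 other than controls none. By Entrez identifier 20758 matched RefSeq (GRCr8), used for names, gene order and promoter windows. Controls and the 25% with the lowest mean were left out, which left 23281. The difference between final and basal samples was estimated by limma 3.58.1 (R 4.3.3), tumor as a block, with an intensity trend. P-values were adjusted by Benjamini-Hochberg over all tested probe sets. The pairing comes from the tumor codes in the labels. The correlation of both samples' deviations from their group means was -0.15 to 0.22. In simulated arrays of this comparison, 200 of 23281 probe sets were changed. The fit recovered 31.0% of changes of 1 log2 unit, 97.5% of 2 units and 99.0% of 3 units, with 6, 7 and 10 false calls. The noise was normal and had the same SD on every array, so the array of 09I1 that stood apart was not modelled. The changed probe sets were drawn from all tested ones, so these shares do not describe noisier genes such as Mmp13 (SE 0.94).

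The members and lists were chosen with earlier results of these data known. Named were all members, the 3 genes of each pathway list with the smallest p, the 2 brightest of the cell type lists used and the 2 genes most like each member. Mmp7 and the TATAAA motif were added after values had been seen. Protein sequences were not used here. No detection calls were used, and precision is limited by the number of arrays. The alternatives were another block, filter, scaling or weighting, no trend, the methods' paired t-test, averaging all probe sets of a gene, and leaving out each tumor. Counts of the gene lists without 09I1 were added after seeing the data.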

Additional observations from a re-analysis of the deposited data

Results flagged for a closer look

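Among 30 sets of 5 values (basal levels, final levels and changes of the 10 genes), 1 had an extreme value separated from the remaining 4 by a wide gap. By chance about 1.5 such sets would be met. It was the final level of Mmp13 in tumor 09I1, at 6.19, against 9.50 to 10.74 in the other 4 tumors. That array also stood apart in its control probe sets, and the basal level of Mmp13 in the same tumor, on an array that did not stand apart, was 5.44. The 3′ to 5′ difference of beta-actin on the final array was 2.61 log2 units, and the part of that in the Mmp13 level was not tested.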

How the results depend on the processing

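Of the 10 genes, 0 passed the threshold under any of 15 alternatives, and the count over all tested probe sets or genes was 0 as well; at an unadjusted p under 0.05 that count was 303 (mean of a gene's probe sets, fewer features tested) to 2440 (array weights). Mmp9 was not tested with the lowest 50% left out or with the mean of its probe sets. Without the tumor as a replicate block and with a random replicate block the counts were 0 and 0, so the paired fit changed no call. The direction of the mean change was the same in 130 of 148 comparisons with an alternative, and Mmp2, Mmp11 and Timp3 kept theirs in all, though with 1 tumor left out they ran from 0.09 to 0.51, from 0.14 to 0.45 and from -0.39 to -0.06. With array weights, Mmp3 was at -0.17, Mmp12 at 0.47, Mmp14 at 0.19 and Timp1 at 0.14. Mmp12 was at 0.0074 with arrays centred on their medians and at 0.0006 with cyclic loess, and Timp2 at -0.27 with the mean of its probe sets. With 1 tumor left out the others ran from -0.34 to 0.56 for Mmp3, from -0.64 to 0.28 for Mmp9, from -0.27 to 0.35 for Mmp12, from -0.68 to 1.18 for Mmp13, from -0.49 to 0.10 for Mmp14, from -0.31 to 0.17 for Timp1 and from -0.10 to 0.19 for Timp2. Leaving out a tumor or weighting arrays alters the share of single tumors by construction. For Timp2 the mean joins a change of 0.02 with one of -0.56 from its other probe set, which was at -3.66 in 09I1. Centring shifts the mean change of every gene by the same amount, and that of Mmp12 lay close enough to 0 to change sign. The cause of the reversal of Mmp12 with cyclic loess was not tested.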
